A study of Homo sapiens with 4 samples.

Results

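The condensin, cohesin and separase genes are 10 genes whose products shape, hold together and release the sister chromatids of a dividing cell, and all 10 had a row among the 28729 genes of the deposited expression table. They were taken as a fixed list and matched from Ensembl identifiers to gene symbols. Condensin I was represented by SMC2, SMC4, NCAPD2, NCAPG and NCAPH, cohesin by SMC1A, SMC3 and RAD21, and the release step by PTTG1 (securin) and ESPL1 (separase). The libraries came from TU-177, an established human line labelled as laryngeal squamous cell carcinoma (LSCC). There were 2 libraries of the negative control (NC) and 2 of SKA3 knockdown (SKA3-KD), a gene whose product joins kinetochores to spindle microtubules. By the sample labels, the cells of both groups were transduced with a lentivirus, carrying an shRNA against SKA3 or a negative control, and selected with puromycin, while the study's methods describe lentiviral shRNA, siRNAs and, for stable SKA3 knockdown, Cas9 with guide RNAs, without tying one of them to the sequenced cells. Neither source says that the replicates were separate cultures, so the p-values cover only the spread between these libraries.

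Condensin is a ring of the ATPases SMC2 and SMC4, closed by a kleisin subunit and bound by HEAT-repeat subunits, and it compacts chromosomes as cells enter mitosis. Cohesin is a similar ring of SMC1A and SMC3 closed by the kleisin RAD21, and it holds sister chromatids together from DNA replication until anaphase. Securin keeps the protease separase inactive until the anaphase-promoting complex marks it for destruction, after which separase cuts RAD21 and the sisters part. In bulk RNA of a cycling culture, more cells in a given phase and more RNA per cell cannot be told apart.

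SKA3 itself was lower in SKA3-KD, at 3.77 and 4.12 FPKM against 9.40 and 9.64 FPKM in NC (log2 fold change -1.09, adjusted p = 0.00806, limma with Benjamini-Hochberg adjustment over all genes tested). Left out in turn, each NC library ended this call (adjusted p = 0.066 without NC 1 and 0.06 without NC 2, limma), at log2 fold changes of -1.11 and -1.07. FPKM counts sequenced fragments relative to library depth and to a length for each gene. For 61.3% of tested genes the values gave whole reads at the total length of the annotated exons, which can exceed that of a transcript. Levels compared between genes are therefore approximate. By the steps in their FPKM values the libraries held 9015056 to 11966130 reads. Of 9 squamous epithelial markers, 8 were in the table and 3 (KRT17, EPCAM and PERP) had a mean of at least 1 FPKM, while KRT5, KRT14 and KRT6A were at 0 or close to it. The sum over the 8 markers was 119 to 122 FPKM in NC and 53.9 to 57.8 FPKM in SKA3-KD. Most of this difference was PERP, at 72.7 and 66.1 FPKM in NC and 20.5 and 18.6 FPKM in SKA3-KD. KRT17 was lower too, at 45.6 and 49.1 FPKM in NC and 29.4 and 35.7 FPKM in SKA3-KD. EPCAM was at 2.73 to 2.95 FPKM in all 4 libraries, and TP63 and CDH1 were under 1 FPKM in each. The part of these differences in the results below was not tested. Of 5 fibroblast markers, 2 had a mean of at least 1 FPKM, and the sum over all 5 was 12.5 to 13.3 FPKM in NC against 5.43 to 5.67 FPKM in SKA3-KD. The leukocyte and endothelial markers in the table were all under a mean of 1 FPKM, and PTPRC, which marks leukocytes, was at 0 in 3 of the 4 libraries. The sum of the leukocyte markers was 0.972 to 1.03 FPKM in NC and 0.798 to 1.38 FPKM in SKA3-KD, and that of the endothelial markers 0.0633 to 0.0813 and 0.0825 to 0.0968 FPKM.

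Stretches of promoter are shown for ESPL1, the gene of the 10 past the threshold, and for its partner PTTG1. Further stretches are from a condensin I gene, NCAPH, and from a cohesin gene with a small difference, SMC1A. They are RefSeq sequences of GRCh38.p14, read 5′ to 3′ on the strand of the gene, and each ends at or before the annotated start of transcription. Capitals mark matches on either strand to TTTGAA or TTCGAA (forms of the cell cycle homology region), CCAAT (the CCAAT box, ATTGG on the other strand) and the E2F-type motifs TTCCCGC and TTGGCGC.
ESPL1, chr12:53268199-53268298, plus strand: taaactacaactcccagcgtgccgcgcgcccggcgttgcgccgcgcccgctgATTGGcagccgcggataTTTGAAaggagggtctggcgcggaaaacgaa
PTTG1, chr5:160421725-160421821, plus strand: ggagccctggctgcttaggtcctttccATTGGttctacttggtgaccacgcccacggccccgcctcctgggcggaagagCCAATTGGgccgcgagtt
NCAPH, chr2:96335636-96335765, plus strand: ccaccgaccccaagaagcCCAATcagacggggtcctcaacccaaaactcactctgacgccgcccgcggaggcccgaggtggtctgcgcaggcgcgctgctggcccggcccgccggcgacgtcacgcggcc
SMC1A, chrX:53422729-53422828, minus strand: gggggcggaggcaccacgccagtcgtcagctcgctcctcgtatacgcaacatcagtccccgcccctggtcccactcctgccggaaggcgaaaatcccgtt

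The ESPL1 stretch held a CCAAT match, beginning at position -48 from the start of transcription, and a TTTGAA match at position -31. PTTG1 held 3 CCAAT matches, at positions -103, -51 and -48, of which the last 2 overlap, and no TTTGAA. The NCAPH stretch held 1 CCAAT match at position -112, and the SMC1A stretch held none of the motifs. A match is a stretch of letters and not a measured binding site. The RefSeq table held windows of 300 bases, from 250 bases before the start to 50 after, for 9 of the 10 genes. TTTGAA occurred in a window of 6 of these genes (SMC2, SMC4, NCAPD2, NCAPG, SMC3 and ESPL1), and in 15.2% of all 35116 windows. TTCGAA occurred in 0 of the 9, with 1.45% of all windows holding it. CCAAT occurred in 4 of the 9 (NCAPD2, NCAPH, PTTG1 and ESPL1) against 34.6% of all windows, and TTCCCGC in 2 of the 9 (NCAPG and SMC1A) against 6.55%. TTGGCGC was in 0 of the 9 and in 3.04% of all windows. Genes with more than 1 annotated start had more than 1 chance to match. The genes with TTTGAA ranged from ESPL1, the one past the threshold, to SMC2 and SMC3, with log2 fold changes of 0.03 each.

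All 10 genes were well expressed, with mean levels above 72.8% (ESPL1) to 97.3% (RAD21) of the 12645 genes tested or equal to them, so each passed the filter at a mean of 1 FPKM. In NC the order of the mean levels was RAD21 (94.7 FPKM), NCAPD2 (73.9), SMC3 (68.9), SMC1A (49.9), PTTG1 (47.7), SMC4 (34.1), NCAPH (28.6), SMC2 (24.6), NCAPG (17.5) and ESPL1 (11.4). The ranges of the 2 NC libraries overlapped for NCAPD2 and SMC3, and for SMC1A and PTTG1, and for no other neighbours in this order. The order in SKA3-KD was the same apart from PTTG1, at 58.0 FPKM, which stood above SMC1A, at 47.9 FPKM. The cohesin kleisin was the highest of the 10 in both groups, and separase the lowest.

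**Figure D1:**
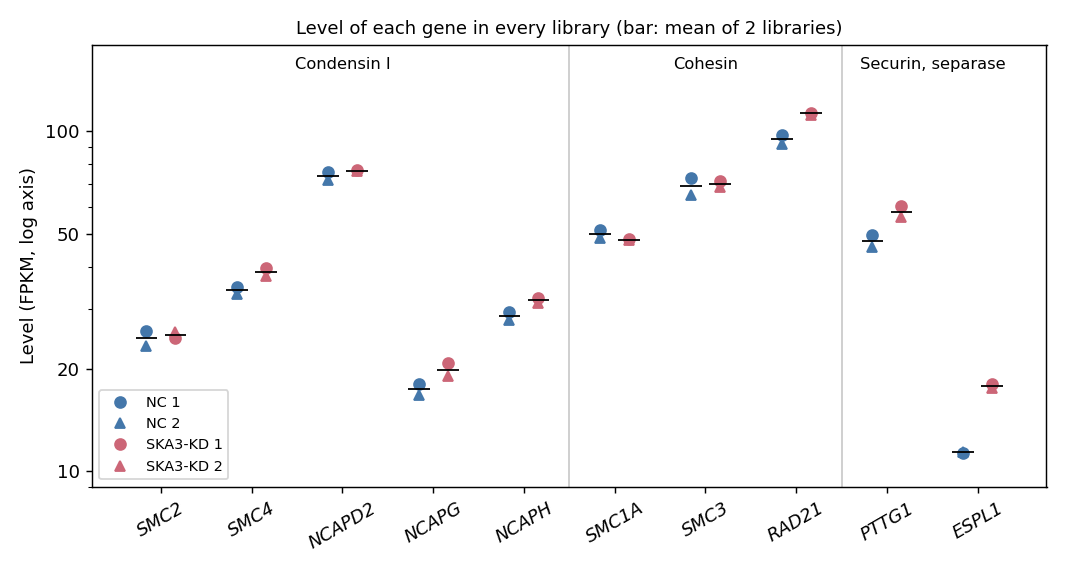
Level in FPKM, on a log axis, of the 10 genes in the 2 NC and 2 SKA3-KD libraries, with a bar at the mean of each group. ESPL1 stands at 11.3 and 11.4 FPKM in NC and at 18.1 and 17.6 FPKM in SKA3-KD, while the libraries of SMC2 and SMC3 overlap between the groups.

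Of the 10 genes, 1 was higher in SKA3-KD past the threshold (ESPL1) and 0 were lower, where 6.16% of all genes tested were called higher and 6.11% lower, 12.3% in all. An unadjusted p-value under 0.05 was reached by 4 of them, all higher (ESPL1, RAD21, PTTG1 and SMC4), against 16.2% of all genes in that direction and 31.3% in either. The median log2 fold change of the 10 was 0.16, against 0.01 over all genes, and 9 of the 10 were above 0, where 51.6% of all genes were. The groups did not overlap in 8 of the 10, where the same held for 61.6% of all genes. Of these, 7 were higher in SKA3-KD and 1 was lower, the background being 32.3% and 29.2% of all genes. Set against the mean of NC, SKA3-KD 1 had a median of 0.19 over the 10 genes and SKA3-KD 2 one of 0.12.

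The control libraries also differed on these genes. NC 2 was below NC 1 in 9 of the 10, with a median difference of -0.08 on the log2 scale, where 52.4% of all genes were below and the median was -0.01. ESPL1 was the exception, with nearly equal NC libraries. SKA3-KD 2 was likewise below SKA3-KD 1 in 9 of the 10, all but SMC2, with a median difference of -0.04, where 50.6% of all genes were below. NC 2 was also the lower in most genes of the lists set out below. The shares were 84.0% of other pathway genes, 70.0% of S phase genes and 85.0% of late G2 and mitosis genes. For SKA3-KD 2 they were 48.0%, 55.0% and 85.0% in the same order.

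**Figure D2:**
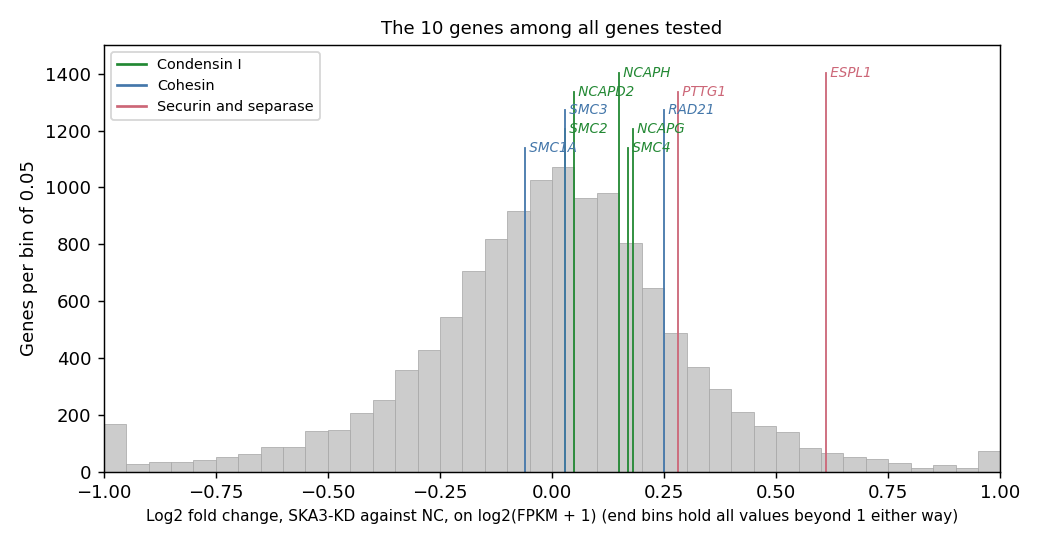
Number of genes in each bin of log2 fold change (SKA3-KD against NC, on log2(FPKM + 1)) for the 12645 genes tested, with the 10 genes drawn as lines coloured by complex. ESPL1 lies in the upper tail at 0.61, whereas 6 of the lines (SMC1A, SMC2, SMC3, NCAPD2, NCAPH and SMC4) lie between -0.06 and 0.17.

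Separase showed the one change that passed the test. ESPL1 (ENSG00000135476, chromosome 12 of GRCh38, 53268299 to 53293643) was measured at 11.3 FPKM in NC 1 and 11.4 in NC 2, and at 18.1 in SKA3-KD 1 and 17.6 in SKA3-KD 2. Both SKA3-KD libraries stood far above both NC libraries, which differed from each other by 0.00 on the log2 scale. There were 1206 and 912 reads behind the NC values and 1636 and 1843 behind those of SKA3-KD. The mean rose 1.57-fold, from 11.4 ± 0.0302 (SD, n = 2) to 17.8 ± 0.356 FPKM (SD, n = 2). On log2(FPKM + 1) the fold change was 0.61 (standard error 0.06, 95% interval 0.45 to 0.76, adjusted p = 0.0118, limma), above that of 97.6% of all genes tested or equal to it. Counting error alone would give a standard error of 0.040 on the log2 scale. With any 1 of the 4 libraries left out the log2 fold change stayed between 0.59 and 0.63, but the adjusted p-value rose to 0.0695 without NC 1, 0.0641 without NC 2, 0.071 without SKA3-KD 1 and 0.0628 without SKA3-KD 2 (limma).

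Its inhibitor securin stood on the same side with a smaller difference. PTTG1 (ENSG00000164611, chromosome 5 of GRCh38, 160421822 to 160428744) was at 49.7 and 45.7 FPKM in NC 1 and NC 2, and at 60.1 and 55.9 FPKM in SKA3-KD 1 and SKA3-KD 2. The groups did not overlap, and SKA3-KD 1 was the higher of its pair. The log2 fold change was 0.28 (95% interval 0.09 to 0.46), which missed the threshold in limma (adjusted p = 0.0705). Under 3 of 8 alternatives that kept all 4 libraries PTTG1 was past it, namely blocking by replicate number (adjusted p = 0.033, limma), testing only genes with a mean of at least 5 FPKM (0.0341) and limma voom on the reads (0.0164). These settings called 7.92%, 13.6% and 13.4% of all genes higher and 7.63%, 12.1% and 12% lower, in the same order. The copies PTTG2 and PTTG3P are not analysed here, and reads from so similar a sequence could be divided between them and PTTG1.

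The level of separase relative to securin stood higher in both SKA3-KD libraries. The ratio of ESPL1 to PTTG1 in FPKM was 0.228 and 0.249 in NC 1 and NC 2, and 0.301 and 0.315 in SKA3-KD 1 and SKA3-KD 2. This is a difference of 0.37 on the log2 scale, against gaps of 0.13 between the NC libraries and 0.06 between the SKA3-KD libraries. The groups did not overlap, and the exact two-sided permutation test gave p = 0.333, the smallest that 2 libraries against 2 allow. It was the largest difference of the 5 ratios computed between partners. Only this ratio holds ESPL1, so its rank is not a result separate from the change of ESPL1.

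Among the cohesin genes, the kleisin and the SMC arms differed in their values. RAD21, the subunit that separase cuts, was at 97.7 and 91.6 FPKM in NC 1 and NC 2, and at 113 and 112 FPKM in SKA3-KD 1 and SKA3-KD 2. The SKA3-KD libraries were close together and both above NC, with 5113 to 8201 reads behind each value. Its log2 fold change was 0.25 (standard error 0.06, 95% interval 0.10 to 0.40, adjusted p = 0.0549, limma), just outside the threshold. It was past the threshold under 4 of the 8 alternatives with all 4 libraries, the 3 named for PTTG1 (adjusted p = 0.0388 with the block, 0.0291 at a mean of at least 5 FPKM and 0.00756 with limma voom) and quantile normalization (0.0432, limma), which called 5.72% of all genes higher and 5.89% lower.

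SMC1A stood at 51.2 and 48.7 FPKM in NC and at 48.1 and 47.8 FPKM in SKA3-KD. Both SKA3-KD libraries lay just below NC, by less than the gap between the NC libraries, and the log2 fold change was -0.06 (95% interval -0.20 to 0.09, adjusted p = 0.532, limma). SMC3 stood at 73.1 and 64.8 FPKM in NC and at 71.5 and 68.8 FPKM in SKA3-KD. Here the SKA3-KD libraries lay between the NC libraries, and the log2 fold change of 0.03 had a 95% interval of -0.17 to 0.22 (adjusted p = 0.845, limma). The intervals of both SMC genes leave out changes as large as that of ESPL1.

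The ratio of RAD21 to SMC3 was 1.34 and 1.41 in NC, and 1.58 and 1.63 in SKA3-KD. The groups were apart, with a log2 difference of 0.22 against gaps of 0.08 and 0.05 within them (exact permutation p = 0.333). The ratio of SMC3 to SMC1A, the partners within the ring, was 1.43 and 1.33 in NC and 1.49 and 1.44 in SKA3-KD. Its log2 difference of 0.09 was no larger than the gap of 0.10 between the NC libraries, and was 0.14 without NC 1 and 0.03 without NC 2.

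**Figure D3:**
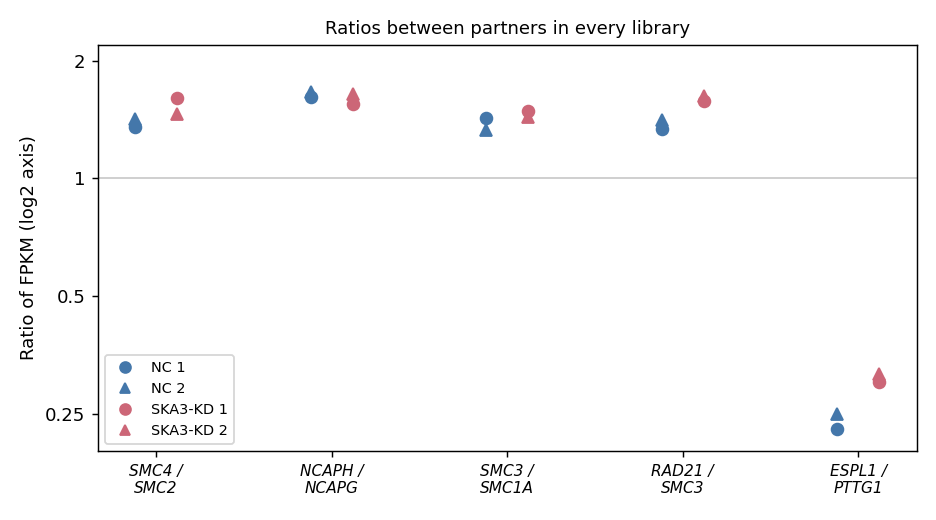
Ratio of the FPKM values of 5 pairs of partner genes, on a log2 axis, in each NC and SKA3-KD library. The ratio of ESPL1 to PTTG1 runs from 0.228 to 0.249 in NC and from 0.301 to 0.315 in SKA3-KD, while the ratios of NCAPH to NCAPG overlap between the groups.

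No condensin I gene passed the test, and all 5 had log2 fold changes above 0, from 0.03 to 0.18. NCAPG, a HEAT-repeat subunit, was at 18.1 and 16.8 FPKM in NC and at 20.8 and 19.1 FPKM in SKA3-KD (log2 fold change 0.18, 95% interval -0.01 to 0.37, adjusted p = 0.184, limma). NCAPH, the kleisin of condensin I, was at 29.4 and 27.9 FPKM in NC and at 32.3 and 31.3 FPKM in SKA3-KD (0.15, interval -0.01 to 0.30, adjusted p = 0.177, limma). SMC4 was at 34.9 and 33.2 FPKM in NC and at 39.7 and 37.4 FPKM in SKA3-KD (0.17, interval 0.01 to 0.34, adjusted p = 0.144, limma). In these 3 genes both SKA3-KD libraries were above both NC libraries, and SKA3-KD 1 was the higher of the pair.

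NCAPD2, the other HEAT-repeat subunit, was at 75.8 and 72.0 FPKM in NC and at 76.7 and 76.3 FPKM in SKA3-KD. The groups did not overlap, but the log2 fold change was only 0.05 (interval -0.09 to 0.19, adjusted p = 0.595, limma). SMC2, the partner of SMC4, was at 25.8 and 23.4 FPKM in NC and at 24.7 and 25.6 FPKM in SKA3-KD, with overlapping groups and a log2 fold change of 0.03 (interval -0.16 to 0.22, adjusted p = 0.816, limma). The ratio of SMC4 to SMC2 was 1.35 and 1.42 in NC and 1.61 and 1.46 in SKA3-KD. Its log2 difference of 0.15 was close to the gap of 0.14 between the SKA3-KD libraries, and leaving out SKA3-KD 1 gave 0.08 and leaving out SKA3-KD 2 gave 0.22. NCAPH and NCAPG had a ratio of 1.62 and 1.66 in NC and of 1.55 and 1.64 in SKA3-KD, which overlap (log2 difference -0.04, exact permutation p = 0.667).

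The other genes of the pathway are condensin II, further cohesin subunits and the factors that load, release, modify or protect these complexes. Of 31 genes listed, 29 were in the table and 25 passed the filter. Of these 25, 2 were higher past the threshold and 0 lower, where 6.16% of all genes tested were called higher and 6.11% lower. The median log2 fold change of the 25 was 0.07. The 2 called higher were NCAPD3 and SGO2. NCAPD3, a HEAT-repeat subunit of condensin II, was at 23.8 and 25 FPKM in NC and at 30.8 and 29.6 FPKM in SKA3-KD (log2 fold change 0.30, 95% interval 0.14 to 0.46, adjusted p = 0.0436, limma). It missed the threshold under median-of-ratios scaling (adjusted p = 0.0505, limma), quantile normalization (0.0518), no filter (0.0899) and eBayes without a trend (0.087). SGO2, a shugoshin that protects cohesin at centromeres, was at 5.58 and 5.29 FPKM in NC and at 7.37 and 6.97 FPKM in SKA3-KD (0.35, interval 0.16 to 0.53, adjusted p = 0.0461, limma), and missed the threshold without the filter (0.117) and without the trend (0.0706). Neither was past it with any 1 library left out, where the log2 fold change ran from 0.26 to 0.33 for NCAPD3 and from 0.31 to 0.38 for SGO2.

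The values of the remaining condensin II subunits were close to equal in the groups. NCAPG2 was at 37.6 and 34.1 FPKM in NC and at 35.8 and 36.0 FPKM in SKA3-KD, with a log2 fold change of 0.01 (interval -0.17 to 0.18). NCAPH2, the condensin II kleisin, was at 14.8 and 15.6 FPKM in NC and at 13.9 and 16.5 FPKM in SKA3-KD, with a log2 fold change of -0.01 (interval -0.25 to 0.24). In both genes the groups overlapped.

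The STAG proteins bind the cohesin ring and are needed for its hold on chromatin. STAG2 was at 31.8 and 27.8 FPKM in NC and at 25.2 and 25.4 FPKM in SKA3-KD (log2 fold change -0.23, interval -0.43 to -0.02, adjusted p = 0.135, limma). The gap between the NC libraries was 0.19 on the log2 scale, and the log2 fold change was -0.13 without NC 1 and -0.32 without NC 2. STAG1 was lower expressed, at 6.33 and 5.96 FPKM in NC and 5.35 and 6.05 FPKM in SKA3-KD, with overlapping groups and a log2 fold change of -0.09 (interval -0.31 to 0.13). The subunits known from meiosis, STAG3, SMC1B, RAD21L1 and REC8, stayed under a mean of 1 FPKM and were not tested. They held between 0 and 80 reads in a library, and RAD21L1 was listed at 0 in 3 of the 4 libraries.

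Among the factors that act on cohesin, the loader NIPBL (log2 fold change 0.27, adjusted p = 0.0562, limma) and PDS5A, which binds the ring and takes part in its release and upkeep (0.31, adjusted p = 0.0562, limma), stood just outside the threshold. Both were past it under 3 of the alternatives, limma voom, the replicate block and a mean of at least 5 FPKM. MAU2, which loads cohesin together with NIPBL, had a value of -0.19 (interval -0.48 to 0.11) with overlapping groups. The value of ESCO1, which acetylates SMC3, was -0.27 (adjusted p = 0.078, limma), and that of the related ESCO2 was 0.07 with overlapping groups. HDAC8, which removes the acetyl group from SMC3, was at -0.15 (interval -0.40 to 0.11). Among the other genes of cohesin release and maintenance, WAPL had a value of 0.07, PDS5B of 0.12 and CDCA5 of 0.14, none past the threshold. SGO1, the other centromeric protector listed beside SGO2, had a value of 0.24 (interval -0.02 to 0.50, adjusted p = 0.188, limma).

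**Figure D4:**
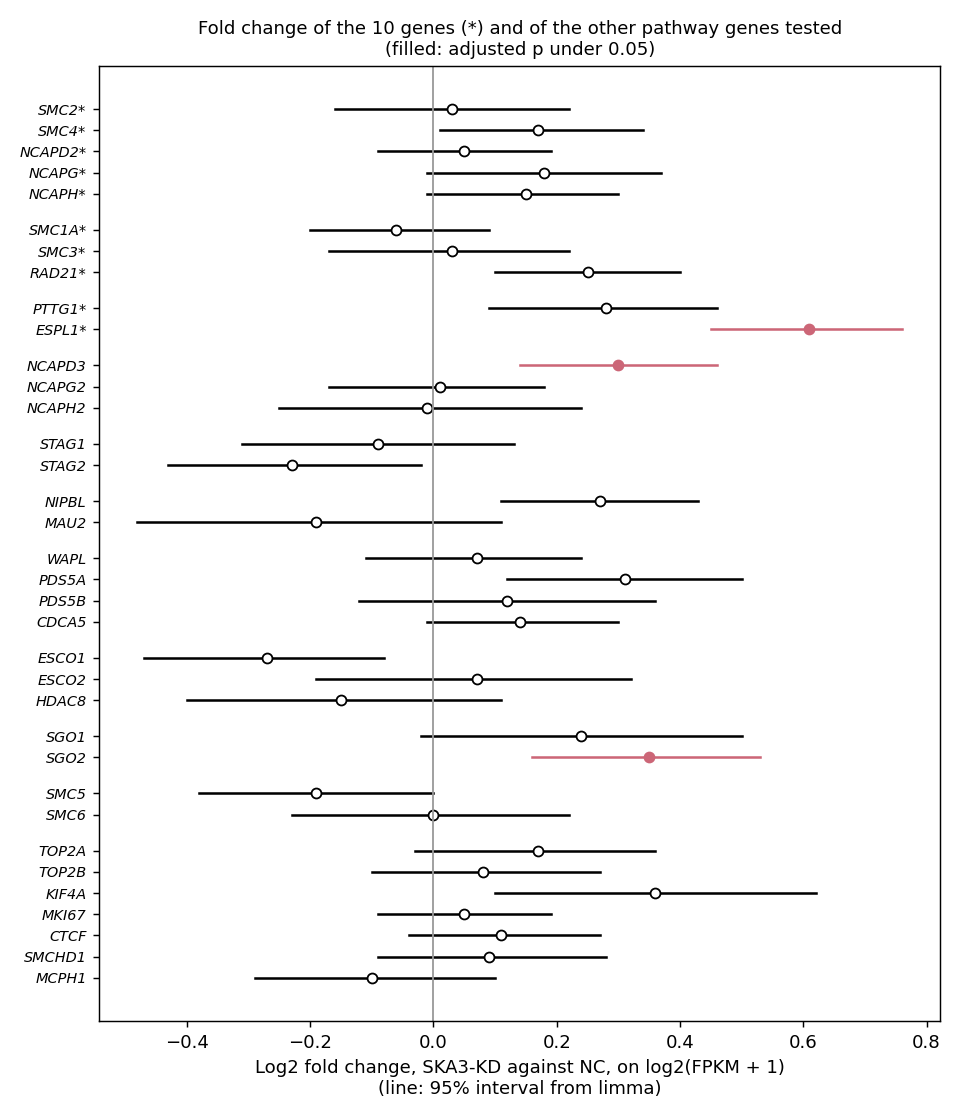
Log2 fold change (SKA3-KD against NC, on log2(FPKM + 1)) with its 95% interval from limma for the 10 genes, marked by an asterisk, and for the 25 other pathway genes tested, grouped by role. Filled points are past an adjusted p-value of 0.05, which holds for ESPL1, NCAPD3 and SGO2.

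Genes with peak expression in late G2 and mitosis were set beside the 10 genes, since several of these genes are known to be made at that time. Of 20 such genes, 12 were higher past the threshold and 0 lower, where 6.16% of all genes tested were called higher and 6.11% lower. The median log2 fold change of the 20 was 0.39, with a median of 0.45 in SKA3-KD 1 and 0.35 in SKA3-KD 2. ESPL1 (0.61) stood near CCNB1 (0.64), the mitotic cyclin, and HMMR (0.58), and PTTG1 (0.28) had the same value as BUB1B (0.28). SMC2 (0.03) stood near NUSAP1 (-0.02), a microtubule-binding protein. The genes set beside them were picked for nearby values, from a range of -0.18 to 0.76 over the 20. Of 20 genes of S phase, 2 were higher and 2 lower past the threshold, against the same shares of all genes, with a median of -0.09. The 2 called higher, RRM2 (0.54) and MCM6 (0.51), also had values not far from that of ESPL1. The 2 called lower were CCNE1 (-0.45) and FEN1 (-0.36), and 13 of the 20 S phase genes were below 0. The part of these differences in the values of the 10 genes was not tested.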

How the data were processed

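Total RNA of TU-177 cells was sequenced as 4 libraries, grouped by the sample titles into NC and SKA3-KD with 2 libraries each. The authors deposited FPKM values per gene by Ensembl identifier, with 1 column for each library. The submitters' processing notes list hg19, Bowtie2 2.2.8, HISAT2, StringTie 1.3.1 and Cuffdiff 2.1.1 without their roles, and the annotation is not given in the sources used here. Symbols, positions and exon lengths came from GENCODE 29 (GRCh38), which held 27199 of the 28729 identifiers, so positions are those of GRCh38 and not of the authors' build. The promoter sequences are from RefSeq.

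Genes with a mean of at least 1 FPKM over the 4 libraries (12645) entered a linear model of log2(FPKM + 1) in R 4.3.3 (limma 3.58.1, eBayes with trend). Adjusted p-values (Benjamini-Hochberg) were held to 0.05. Fold changes of genes with low FPKM are understated on this scale. Low values are whole multiples of 1 read, so library sizes (11966130 and 9015056 in NC 1 and NC 2, 10177854 and 11793604 in SKA3-KD 1 and SKA3-KD 2) and reads could be recovered, for 61.3% of tested genes at the GENCODE 29 exon length and for 99.9% in all (within 0.01 of a whole number). The chi-square of the reads of a pair of replicates, divided by its degrees of freedom, was 4.11 in NC and 4.03 in SKA3-KD, so neither pair agreed within counting noise. Intervals from reads cover counting error only.

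The text names the 10 genes, SKA3, the pathway genes past the threshold, condensin II, STAG1 and STAG2, and cell cycle genes where one of the 10 is set against them. NIPBL, MAU2, PDS5A, ESCO1, ESCO2, HDAC8, SGO1 and SMC6 were added after their values were seen. So were CCNE1, FEN1, the group of cohesin release and maintenance, the subunits known from meiosis and the markers named. The genes and lists were chosen with earlier results of these data known. The alternatives were another pseudocount (0.1), other filters, scalings and variance models, the replicate number as a block, limma voom on the recovered reads and each library left out. The limma and voom steps were tested on simulated data, with changes about as large as that of ESPL1 or larger. Smaller differences were not simulated, nor were changes of genes at levels as low as those of SGO2 and SKA3. The other steps ran in Python 3.11.15 with pandas 2.3.3, scipy 1.17.1, matplotlib 3.10.9 and numpy 2.4.6. Protein sequences were not analysed here.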

Additional observations from a re-analysis of the deposited data

How the results depend on the processing

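With all 4 libraries, ESPL1 was past the threshold under all 8 alternatives, with log2 fold changes from 0.60 to 0.65 and adjusted p-values up to 0.0465 (limma). With 1 library left out its log2 fold change ran from 0.59 to 0.63 and its adjusted p-value from 0.0628 to 0.071, at which settings 0 to 46 genes in all were called higher and 0 to 135 lower, and 0 of the 10 genes and 0 of the pathway genes were called. The counts over all genes, 779 higher and 772 lower, were 48 and 81 without the filter, 312 and 381 without the trend, and 1694 and 1516 with limma voom. Without NC 1 and without NC 2, 0 genes were called in either direction (limma), while 1638 and 1797 were higher and 1486 and 1555 lower at an unadjusted p-value under 0.05. The count of 1 higher gene among the 10 was 3 at a mean of at least 5 FPKM, 2 under quantile normalization, 3 with the replicate block and 3 with limma voom. In the same order, these settings called 13.6%, 5.72%, 7.92% and 13.4% of all genes tested higher. The 2 higher pathway genes, of 25 tested, became 0 of 29 without the filter and 5 of 19 at a mean of at least 5 FPKM. Of the 25, 1 was higher under median-of-ratios scaling, 1 under quantile normalization and 0 without the trend. With the replicate block 4 were higher, and with limma voom 5, which also called 2 lower (STAG2 and ESCO1) and 12% of all genes lower. Over all genes, 48 of 26504 were higher without the filter, 701 of 12645 under median-of-ratios scaling and 312 of 12645 without the trend. The cause of these shifts was not tested, and some of the settings also changed the number of libraries or the set of genes. The numbers 1 and 2 mark no stated pairing, and the correlation over genes of the replicate differences in the 2 groups was 0.10. With the block, 1002 genes were higher and 965 lower.

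With libraries left out, values close to 0 changed sign, for SMC2 (-0.04 to 0.10), SMC3 (-0.06 to 0.11), NCAPG2 (-0.06 to 0.07), NCAPH2 (-0.12 to 0.11), ESCO2 (-0.04 to 0.17) and SMC6 (-0.09 to 0.08). NCAPG2 was also at -0.01 under both median-of-ratios scaling and quantile normalization. With 1 replicate left out, the log2 difference of the ratio of ESPL1 to PTTG1 ran from 0.31 to 0.43, that of RAD21 to SMC3 from 0.18 to 0.26, that of SMC4 to SMC2 from 0.08 to 0.22, that of SMC3 to SMC1A from 0.03 to 0.14 and that of NCAPH to NCAPG from -0.08 to 0.00. The counting error of the log2 fold changes was 0.018 to 0.046 among the 10 genes.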
